A study of Mus musculus with 8 samples.

Results

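Microtubules are built from alpha and beta tubulin, and mammals carry several genes for each of them, whose products are called isotypes. The 10 tubulin isotypes described here were taken by gene symbol from a list chosen with earlier results of these data known. They are the alpha tubulins Tuba1a, Tuba1b, Tuba3a, Tuba3b, Tuba4a and Tuba8 and the beta tubulins Tubb3, Tubb4b, Tubb5 and Tubb6. The expression table holds 23983 genes. The 6 remaining alpha and beta tubulins of the table, Tuba1c, Tubal3, Tubb1, Tubb2a, Tubb2b and Tubb4a, serve as a comparison. RNA-seq was made from testis of mice of genotype C57BL/6J at day 12 after birth (d12), d16, d24 and in the adult, with 1 library per stage. The mice carried no treatment or transgene that the labels name, and every stage shares the same genotype. Total RNA came from a piece of whole testis, so each value is an average over germ cells and somatic cells, and the labels do not give the number of animals behind a library. The values are FPKM, fragments scaled to transcript length and by a factor for each library. Levels of different genes in one library can thus be compared per unit of length. H3K27Ac ChIP-seq of the same stages was not analysed here.

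In the testis, alpha and beta tubulin form the mitotic and meiotic spindles of dividing germ cells, the cytoskeleton of the Sertoli cells that nurse them, the manchette that shapes the spermatid head, and the axoneme of the sperm tail. Most germ cells of the first wave are still spermatogonia or in early meiosis at d12, pachytene spermatocytes accumulate by d16, round spermatids are present at d24, and the adult testis holds every stage up to elongated spermatids. Isotypes of one class are close in sequence over the globular body and differ mainly in the acidic tail at the carboxyl end, which faces the outside of the microtubule. Enzymes add glutamates or glycines to the glutamates of this tail, and the tyrosine at the end of most alpha tubulins can be removed and put back.

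The coding sequence of the last 15 codons is shown for 7 of the 10 members, because this tail is where isotypes of one class differ most and where the modifying enzymes act. The sequences were read from the RefSeq annotation and genome of build GRCm38.p6, 5′ to 3′ on the coding strand, without the stop codon, and the capitals mark the last codon.
Tuba3a (chr6:125278361-125278405, minus strand): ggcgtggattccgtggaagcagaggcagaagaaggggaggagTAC
Tuba3b (chr6:145621340-145621384, plus strand): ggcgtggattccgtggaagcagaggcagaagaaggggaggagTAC
Tuba4a (chr1:75215625-75215669, minus strand): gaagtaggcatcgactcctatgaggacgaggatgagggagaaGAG
Tuba8 (chr6:121226032-121226076, plus strand): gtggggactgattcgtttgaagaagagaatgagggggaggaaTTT
Tubb3 (chr8:123421635-123421679, plus strand): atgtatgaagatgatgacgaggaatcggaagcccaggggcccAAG
Tubb4b (chr2:25222311-25222355, minus strand): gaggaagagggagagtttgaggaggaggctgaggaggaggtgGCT
Tubb5 (chr17:35834985-35835029, minus strand): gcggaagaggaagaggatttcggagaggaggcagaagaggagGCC

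The last codon was TAC, for tyrosine, in Tuba1a, Tuba1b, Tuba3a and Tuba3b. Tuba4a ended in GAG, for glutamate, and Tuba8 in TTT, for phenylalanine, so these alpha tubulins do not encode the terminal tyrosine. The tails of Tuba3a and Tuba3b had 0 differences in 45 bases. Of the 15 codons, 10 encoded glutamate in Tubb4b, 9 in Tubb5 and 4 in Tubb3, while the alpha members had 6 or 7. Over the whole coding sequence, Tuba3a and Tuba3b differed at 41 bases and encoded identical proteins of 450 residues. The proteins of Tuba1a and Tuba1b differed at 2 of 451 residues. Tuba8 was the most distant of the alpha members, with 90.0% of its residues identical to Tuba1a and 90.9% to Tuba3a. Among the beta members, Tubb4b and Tubb5 shared 97.5% of their residues, and Tubb3 shared 91.6% with Tubb4b.

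Tuba8 (chr6:121210734-121226098), Tuba3a (chr6:125278270-125286081) and Tuba3b (chr6:145615963-145621477) lie on one chromosome, 4052171 and 20329881 bp apart, and each has 5 exons. Tuba1b and Tuba1a lie 15456 bp apart on chromosome 15 and have 4 exons each. Tubb4b (chr2:25222158-25224702) and Tubb5 (chr17:35833920-35838301) also have 4 exons. All of these are annotated as protein-coding genes in RefSeq, and positions are those of GRCm38.p6.

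The values could be traced back to fragments, the read pairs counted, since FPKM times transcript length was a whole multiple of the value of 1 fragment for 91.8% to 92.6% of low values, with a tolerance of 0.05 of a fragment, over 14604 genes with 1 transcript. The d12, d16, d24 and adult libraries held about 9325265, 9917492, 24973713 and 12735489 fragments on genes, so d24 was the most deeply sequenced. The value of 1 fragment at 1 kb was 0.0799, 0.08, 0.0455 and 0.112 FPKM in the same order. It was highest in the adult although d12 and d16 held fewer fragments, so fragments on genes alone did not set the scale. Intervals in parentheses are exact 95% intervals from these fragments and cover counting error only. With 1 library per stage there is no spread between animals, no stage has a replicate, and no test of a difference between stages was made. A gene is called higher or lower where log2(FPKM + 0.1) moved by at least 2-fold between libraries, and each count is set beside the share that moved as far among the 13901 genes averaging 1 FPKM or more. All 10 members passed this minimum of 1 FPKM.

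The make-up of the tubulin RNA of the testis shifted between d12 and the adult, although Tubb4b led the beta members at every stage. Tuba1a, Tuba1b, Tubb3 and Tubb5 stepped down at every stage, while Tuba3a, Tuba3b, Tuba4a, Tuba8, Tubb4b and Tubb6 ended higher than they began. Of the 10 members, 6 were at least 2-fold higher in the adult than at d12 and 4 at least 2-fold lower, against 35.7% and 23.1% of all genes compared. Because the members were chosen with earlier results of these data known, these counts only describe the list. The members' median log2 change was 2.13, against 0.20 over all genes compared. In RNA from whole testis, fewer cells of a type and less RNA per cell cannot be told apart, and the make-up of the tissue shifted over the same stages.

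**Figure D1:**
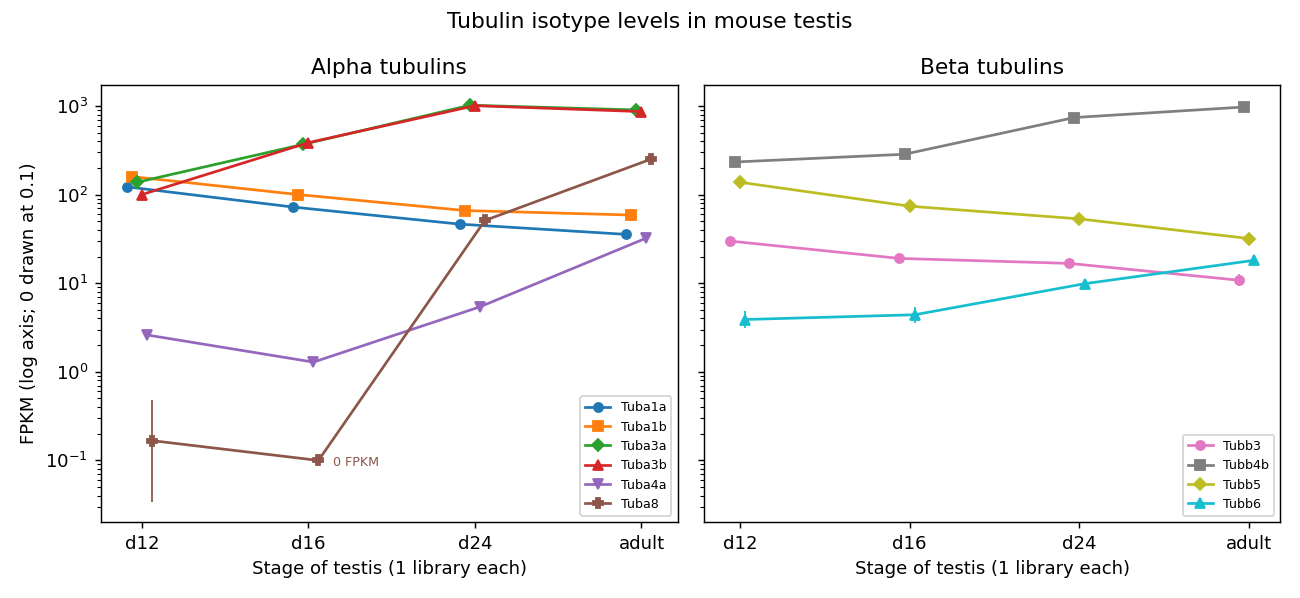
FPKM of each alpha tubulin (left) and beta tubulin (right) on a log axis against the stage of the testis, with 1 library per point and bars for exact 95% counting intervals, which are not drawn for Tuba4a and are smaller than the symbol at high levels. Tuba8 goes from 0 FPKM at d16, drawn at 0.1, to 252.2 FPKM in the adult, while Tubb5 falls from 137.7 to 31.9 FPKM.

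Tuba3a and Tuba3b are known as the alpha tubulins of the testis and give the same protein. Tuba3a stood at 137.5, 369.1, 1019 and 900.9 FPKM at d12, d16, d24 and adult. Tuba3b stood at 99.98, 385.4, 1007 and 863.3 FPKM at the same stages. Both were lowest at d12, rose at both of the next steps and were slightly lower in the adult than at d24, where they ranked 26 and 27 from the top of the whole table. From d12 to adult the ratio was 6.55 for Tuba3a (6.28 to 6.84) and 8.635 for Tuba3b (8.23 to 9.06). Tuba3a over Tuba3b was 1.375 at d12 (1.30 to 1.46), 0.958 at d16 (0.927 to 0.990), 1.01 at d24 (0.997 to 1.03), then 1.04 in the adult (1.02 to 1.07). The pair was thus unequal at d12 and close to equal afterwards. Of the stretches of 50 bases in the Tuba3a transcript, 31.5% also occur in Tuba3b, so the mapping decides where some fragments count, and the sum of the pair is better defined than either member.

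Tuba8, the most divergent alpha member and without a terminal tyrosine codon, had the steepest course. It had 3 fragments at d12 (0.167 FPKM, 0.0336 to 0.477) and none at d16, where 3 fragments would be 0.163 FPKM. At d24 it stood at 51.0 FPKM from 1647 fragments (48.6 to 53.6) and in the adult at 252.2 FPKM from 3304 fragments (243.7 to 261). The first pair of stages lay at the limit of detection and the last pair far above it. The d24 level was 312.4 times the limit of 3 fragments at d16, the exact interval of the ratio of d24 to d16 had a lower bound of 254, and the adult level was 4.94 times that of d24 (4.66 to 5.25). The adult over d12 ratio of 1508 rests on 3 fragments and has an interval of 529 to 7504. Spermatid transcripts were also present in traces at d12, where the 6 markers of elongating spermatids summed to 13.2 FPKM and at d16 to 4.45 FPKM. The part of these in the d12 value of Tuba8 was not tested.

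Tuba4a, whose tail ends in glutamate, is known as an alpha tubulin of muscle, brain and platelets. It stood at 2.61, 1.29, 5.41 and 32.3 FPKM at d12, d16, d24 and adult. It was lowest at d16 and highest in the adult, 12.4 times its d12 level, and most of the rise came after d24, with a ratio of 5.98. RefSeq lists 3 transcripts of different length for Tuba4a, so its fragments can only be bracketed, at 64 to 76 at d12 and 563 to 672 in the adult, and no interval is given.

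Tuba1a and Tuba1b are the alpha tubulins of dividing and of neural cells. Tuba1a fell from 122.3 FPKM at d12 to 72.2, 46.35 and 35.5 FPKM in the later libraries. Tuba1b fell from 159.5 to 99.97, 66.0 and 58.7 FPKM. The adult over d12 ratio was 0.290 for Tuba1a (0.263 to 0.320) and 0.368 for Tuba1b (0.340 to 0.398), and neither passed 2-fold in any single step. Tuba1b over Tuba1a went from 1.30 at d12 (1.24 to 1.38) to 1.65 in the adult (1.48 to 1.85), so by assigned fragments Tuba1a declined further. Of their stretches of 50 bases, 59.1% of Tuba1a and 72.3% of Tuba1b occur in another transcript, mostly Tuba1c. The mapping thus decides where some fragments count, which the intervals of this ratio do not cover. Tuba1c itself stood at 5.25, 2.51, 1.96 and 5.67 FPKM.

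Tubb4b, the beta tubulin of cilia and flagella, was the most abundant member at d12 and in the adult. It stood at 233.0, 285.2, 740.2 and 972.8 FPKM at d12, d16, d24 and adult, and ranked 55 in the whole adult library. Each value lay above the one before, the greatest step was from d16 to d24, with a ratio of 2.60 (2.52 to 2.67), and the adult level was 4.175 times that of d12 (4.04 to 4.32). Tubb5, the beta tubulin of most dividing cells, ran the other way, from 137.7 FPKM at d12 to 73.9, 53.2 and 31.9 FPKM in the later libraries. Its adult over d12 ratio of 0.232 (0.214 to 0.250) was the lowest of the 10 members.

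Tubb3, best known as a marker of neurons, stood at 29.9, 19.0, 16.7 and 10.8 FPKM at d12, d16, d24 and adult, a ratio of 0.361 (0.304 to 0.430). The 6 neural markers, Elavl4, Snap25, Syt1, Nefl, Nefm and Stmn2, summed to between 1.55 and 2.16 FPKM in every library. Snap25 and Stmn2 were at 0 at d12, Snap25 at d24, and Nefl and Stmn2 in the adult, while Nefm stood at 0.791, 0.817, 0.296 and 0.174 FPKM. The part of neural RNA in the level of Tubb3 was not tested. Tubb6, a less studied and broadly expressed beta tubulin, stood at 3.89, 4.40, 9.87 and 18.1 FPKM at d12, d16, d24 and adult. It rose 4.66 times from d12 to adult (3.64 to 6.01), from 85 fragments to 282, while its first step of 1.13 had an interval that includes 1 (0.836 to 1.53).

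Step by step, the interval from d16 to d24 held the most calls on the deposited scale at 2-fold, but not under any of the 3 other scalings. Under each of these, 2 members were higher and 3 lower from d12 to d16. Of all genes compared, 11.7% were higher and 5.78% lower over that step under one FPKM sum. From d16 to d24, 2 members were higher and 3 lower under one FPKM sum, against 19.4% and 30.2% of all genes compared. By the median gene 3 members were higher and 2 lower over that step, and by the upper quartile 5 were higher and 0 lower. The shares of all genes were not computed for the scalings by the median gene and the upper quartile. On the deposited scale, 2 members were called higher from d12 to d16, Tuba3a and Tuba3b, against 12.6% of all genes compared. Tuba8 was the only member called lower, by 3 fragments against none, and 3.67% of all genes compared were called lower. From d16 to d24, Tuba3a, Tuba3b, Tuba4a, Tuba8, Tubb4b and Tubb6 were higher, 6 of the 10 against 27.5%, and none was lower, against 8.45%. From d24 to adult, Tuba4a and Tuba8 were higher, 2 of the 10 against 11.4%, and none was lower, against 2.2%.

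Levels between stages depend on how the libraries are scaled. Summed FPKM was 283580, 307964, 472726 and 659202 in the d12, d16, d24 and adult libraries. With every library rescaled to one FPKM sum, the median change of all genes from d12 to adult moved by -1.20 on the log2 scale, and 23.2% of genes were called higher and 49.9% lower. With that scaling 19.4% were higher and 30.2% lower from d16 to d24, and 6.63% higher and 10% lower from d24 to adult. Of the 6 members called higher from d12 to adult, Tuba3a, Tuba3b, Tuba4a and Tuba8 remained past 2-fold, and the log2 changes of Tubb4b and Tubb6 became 0.84 and 0.99. The step of Tubb4b from d24 to adult changed sign, from 0.39 to -0.09.

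Shares within a library do not depend on that scaling. In the alpha pool, the sum of the 6 alpha members, Tuba1a and Tuba1b together held 54.0% at d12, 18.55% at d16, 5.12% at d24, then 4.40% in the adult. Tuba3a and Tuba3b together held 45.5%, 81.3%, 92.3% and 82.3%. The Tuba1 pair thus led only at d12, and the Tuba3 pair led at the 3 later stages. Tuba8 held 0.0320% at d12, 2.325% at d24 and 11.8% in the adult. The alpha members without a terminal tyrosine codon, Tuba4a and Tuba8, together held 0.531%, 0.139%, 2.57% and 13.3%.

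In the beta pool of 4 members, Tubb4b held 57.6% at d12, 74.6% at d16, 90.3% at d24, then 94.1% in the adult. Tubb5 held 34.0%, 19.3%, 6.48% and 3.085%, and Tubb3 held 7.39%, 4.98%, 2.04% and 1.045%. Tubb6 stayed between 0.962% and 1.75%. By FPKM a single isotype made up most of the beta pool at every stage (counted as fragments, 46.9% at d12). The 6 tubulins outside the list added 1.25% of all alpha and beta tubulin FPKM at d12 and between 0.188% and 0.356% later, so the pools hold nearly all of it.

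**Figure D2:**
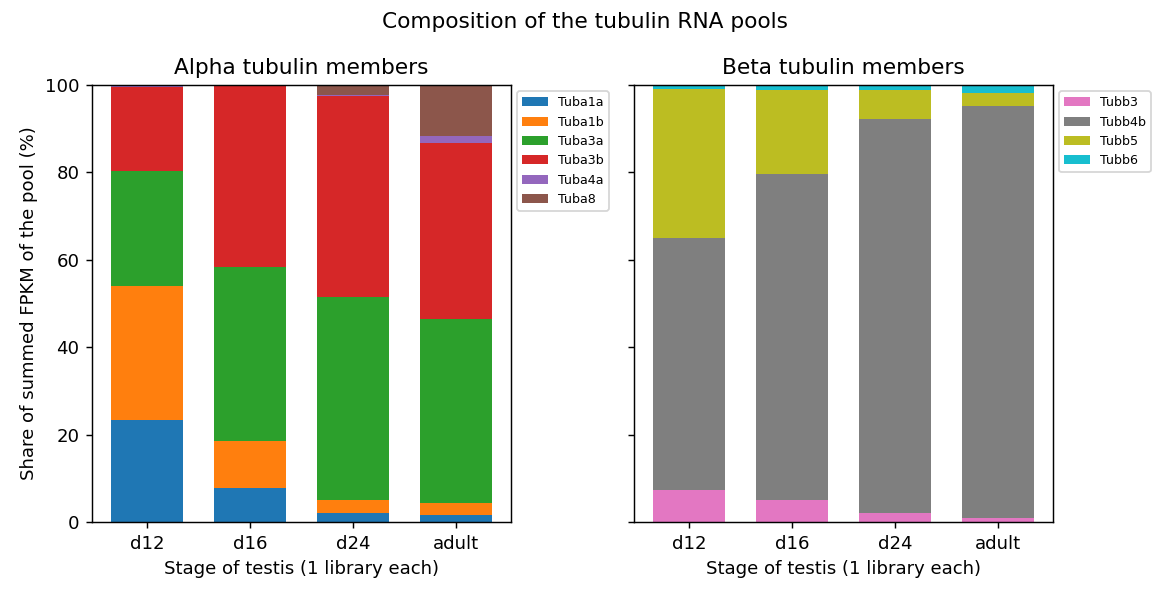
Share in percent of the summed FPKM of the 6 alpha members (left) and the 4 beta members (right) held by each isotype, as stacked bars, with 1 library per stage. Tuba1a and Tuba1b together go from 54.0% to 4.40% of the alpha bar, and Tubb4b from 57.6% to 94.1% of the beta bar.

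The alpha pool was larger than the beta pool throughout. Alpha members summed to 522.1, 928, 2195 and 2143 FPKM at d12, d16, d24 and adult. Beta members summed to 404.5, 382.6, 820 and 1034 FPKM. Alpha over beta was 1.29 at d12, 2.43 at d16, 2.68 at d24, then 2.07 in the adult. From d12 to d16 the alpha pool grew while the beta pool did not. Together the members made up 0.327%, 0.426%, 0.638% and 0.482% of all FPKM, most at d24.

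Ratios of a member that rose to one that fell were compared within each library. Their rise from d12 to adult follows from this choice. Tubb4b over Tubb5 was 1.69 at d12 (1.625 to 1.76), 3.86 at d16 (3.68 to 4.05), 13.9 at d24 (13.4 to 14.5), then 30.5 in the adult (28.35 to 32.9). Tuba3a over Tuba1b was 0.862 at d12 (0.818 to 0.908), 3.69 at d16 (3.51 to 3.885), 15.4 at d24 (14.8 to 16.1), then 15.3 in the adult (14.3 to 16.5). The intervals of the beta ratio are apart at all 4 stages, and those of the alpha ratio overlap for d24 and adult. Tubb5 over Tubb3, which compares members that both fell, went from 4.605 at d12 to 2.95 in the adult.

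In the adult the order of levels was Tubb4b, Tuba3a, Tuba3b, Tuba8, Tuba1b, Tuba1a, Tuba4a, Tubb5, Tubb6 and Tubb3. Tuba1a (32.5 to 38.8 FPKM) and Tubb5 (29.65 to 34.25 FPKM) had overlapping intervals, with Tuba4a between them. At d12 the order was Tubb4b, Tuba1b, Tubb5, Tuba3a, Tuba1a, Tuba3b, Tubb3, Tubb6, Tuba4a and Tuba8. There Tubb5 (133.7 to 141.7 FPKM) and Tuba3a (132.3 to 142.8 FPKM) could not be separated.

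The cell types of the testis moved over the same stages. The 8 Sertoli cell markers summed to 231.7, 184.4, 121.4 and 92.4 FPKM at d12, d16, d24 and adult, with Amh at 0 in the adult. The 6 spermatogonial markers fell from 289 to 62.1 FPKM and the 6 peritubular markers from 376.7 to 135.1 FPKM. The sums of these lists fell over the same stages as Tuba1a, Tuba1b, Tubb3 and Tubb5. Of all genes compared, 23.1% were at least 2-fold lower in the adult than at d12. Of the markers, 6 of 8, 5 of 6 and 5 of 6 were. The exceptions were Rhox5 and Trf of the Sertoli list, which went from 20.3 to 16.7 and from 6.61 to 8.66 FPKM, Gfra1 of the spermatogonial list, from 1.2 to 2.41, and Des of the peritubular list, from 4.72 to 2.71. The 6 spermatocyte markers went from 865.4 FPKM at d12 to 2494, 4481 and 4929 FPKM in the later libraries. That sum was led by Ldhc and Hspa2, whereas Sycp1 stood at 288, 536, 309 and 296 FPKM, Sycp3 at 414, 795, 505 and 507, and Hormad1 at 115, 344, 266 and 217, all highest at d16. The 6 round spermatid markers went from 3.54 to 14.9, 471.4 and 1105 FPKM, with Acrv1 and Catsper3 at 0 at d16, and the 6 elongating spermatid markers from 13.2 to 4.45, 2363 and 26390 FPKM. The 6 Leydig cell markers summed to 131.6, 82.4, 153.4 and 580.7 FPKM. Of these, Cyp17a1, Cyp11a1 and Insl3 were at least 2-fold higher in the adult than at d12, against 35.7% of all genes compared. The others were not, with Star going from 18.8 to 15.1 FPKM, Hsd3b1 from 42.1 to 58.9 and Lhcgr from 2.22 to 2.64. The part of these cell types in the tubulin changes was not tested.

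**Figure D3:**
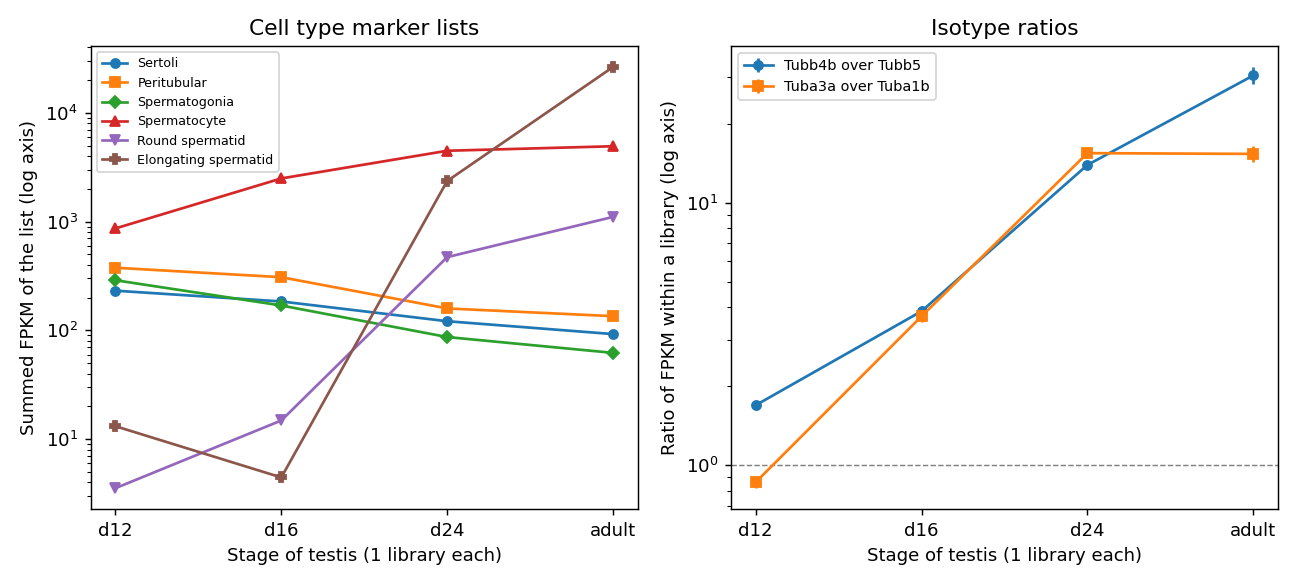
Left, summed FPKM on a log axis of 6 marker lists against the stage of the testis. Right, the ratios Tubb4b over Tubb5 and Tuba3a over Tuba1b within each library on a log axis with exact 95% counting intervals, the dashed line marking equal levels. Tubb4b over Tubb5 goes from 1.69 at d12 to 30.5 in the adult, and 1 library stands behind each point.

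The genes with profiles most like Tuba8, by the root mean square distance of centred log2(FPKM + 0.1) over the 4 libraries among 13901 genes, were Gapdhs, Ccdc54, Plcz1, Odf1 and Erich3, at distances of 0.118 to 0.157. Gapdhs, the glycolytic enzyme of sperm, stood at 0.219, 0, 61 and 260 FPKM. Plcz1, the sperm factor that activates the egg, stood at 0.183, 0, 49.6 and 203 FPKM. Odf1, a protein of the outer dense fibres of the sperm tail, is also one of the elongating spermatid markers. The genes most like Tubb5 were Rcsd1, Sdsl, Insig1, 0610010K14Rik and Tgfb3, at distances of 0.016 to 0.045. Tgfb3 stood at 11.8, 6.43, 4.84 and 2.88 FPKM.

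The bases before the start sites are shown for Tuba3a, Tuba3b and Tubb4b, the members with the highest levels in the adult. Both Tuba3 genes, which lie far apart, rose from d12 to d24, though their ratios from d12 to d16 differed (2.685 and 3.855). Whether these bases bear on their levels was not tested. Each sequence is the 250 bases before the RefSeq start of the transcript in GRCm38.p6, written 5′ to 3′ towards the gene, and the capitals mark CCAAT or its reverse complement.
Tuba3a (chr6:125286082-125286331, minus strand): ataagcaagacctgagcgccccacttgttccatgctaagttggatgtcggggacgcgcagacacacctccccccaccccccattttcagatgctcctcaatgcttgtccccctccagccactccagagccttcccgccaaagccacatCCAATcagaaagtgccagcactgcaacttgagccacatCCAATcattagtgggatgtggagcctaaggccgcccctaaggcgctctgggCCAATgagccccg
Tuba3b (chr6:145615713-145615962, plus strand): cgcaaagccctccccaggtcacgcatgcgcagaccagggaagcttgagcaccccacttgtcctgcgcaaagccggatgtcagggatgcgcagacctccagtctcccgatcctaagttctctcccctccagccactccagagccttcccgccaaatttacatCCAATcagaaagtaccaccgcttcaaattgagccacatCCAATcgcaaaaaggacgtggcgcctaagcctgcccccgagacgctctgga
Tubb4b (chr2:25224703-25224952, minus strand): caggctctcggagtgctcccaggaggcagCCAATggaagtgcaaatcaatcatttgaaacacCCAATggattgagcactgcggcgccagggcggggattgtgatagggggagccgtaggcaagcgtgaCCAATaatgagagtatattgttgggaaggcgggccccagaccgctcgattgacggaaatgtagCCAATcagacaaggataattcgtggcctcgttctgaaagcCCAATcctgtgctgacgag

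The letters CCAAT, a box bound by the factor NF-Y, occur 3 times before Tuba3a, 2 times before Tuba3b and 5 times before Tubb4b. The first boxes begin 102 and 64 bases before the start of Tuba3a and 89 and 51 bases before that of Tuba3b, so both pairs are 38 bases apart. The 250 bases before the starts of Tuba3a and Tuba3b were 61.3% identical, and those of other pairs of members at most 49.8%. Searched on both strands in the 300 bases from 250 before to 50 after the start, CCAAT was found in 6 of 9 member promoters and in 37.4% of 32851 promoters. GGGCGG, the GC box, was in 7 of 9 against 35.7%, and TATAA, the core of the TATA box, in 4 of 9 against 24.9%. TATAA began 78 bases before the start in Tuba1a, 31 and 30 before it in Tubb3, and after it in Tuba4a and Tubb4b. TGACG, part of the cAMP response element, was in Tuba4a and Tubb4b, against 20.8%, and the full TGACGTCA, which holds TGACG, in none of the 9 against 1.79%. GTTGCC, part of the X-box bound by RFX factors, was in Tuba8 alone, against 12.5%. CCAAT and GGGCGG each occurred before members that rose and before members that fell, and these matches describe letters only.

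Genes for enzymes that modify the tails mostly rose from d12 to adult. Of the 15 genes for glutamylation and glycylation, 14 were at least 2-fold higher in the adult than at d12 and none was lower. Of all genes compared, 35.7% were higher and 23.1% lower. The list's median log2 change was 3.91. Under one FPKM sum, 11 of the 15 were higher, against 23.2% of all genes compared. Ttll6, a glutamylase, stood at 0.0996, 4.79, 53.2 and 80.5 FPKM. Ttll5 stood at 16.2, 36.3, 119 and 124 FPKM, Ttll9 at 0.751, 3.58, 35 and 82.3, and Ttll13 at 1.22, 13.7, 102 and 177. The glycylases Ttll8 and Ttll10 stood at 34.5 and 68.6 FPKM in the adult and at 0 and 0.104 at d12.

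The enzymes that remove glutamates also rose, with 5 of 5 genes past 1 FPKM called higher under each scaling and a median log2 change of 4.65, against 35.7% of all genes compared, or 23.2% under one FPKM sum. Agtpbp1, the first of these carboxypeptidases to be known, stood at 19.1, 40.3, 102 and 135 FPKM. Agbl5 stood at 6.47, 33.4, 165 and 165 FPKM, Agbl4 at 1.16, 5.49, 38 and 48.1, and Agbl2 at 1.59, 19.2, 48.6 and 45.3. Of 5 genes for tyrosination and acetylation past 1 FPKM, 3 were higher and 2 lower, against 35.7% and 23.1% of all genes compared. Under one FPKM sum 1 was higher and 2 lower, against 23.2% and 49.9%. Ttl, the ligase that puts the terminal tyrosine back, fell from 2.05 to 1.3, 0.509 and 0.32 FPKM. Vash2, which removes that tyrosine, rose from 0.348 FPKM at d12 and 0.164 at d16 to 9.37 and 21.7. Vash1, which also removes it and averaged under 1 FPKM, stood at 1.3, 0.556, 0.603 and 0.616 FPKM, an adult over d12 ratio of 0.473 (0.311 to 0.704). Hdac6, which removes the acetyl mark of alpha tubulin, fell from 60.2 to 39.5, 19.9 and 16.8 FPKM, and Sirt2, another deacetylase, rose from 11.4 to 43.

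Folding of tubulin needs the chaperonin CCT and the tubulin cofactors. Of the 16 folding genes, 6 were at least 2-fold higher in the adult, close to the 35.7% of all genes compared. None was lower, against 23.1%. Their median log2 change of 0.96 turned to -0.25 under one FPKM sum. With that scaling 2 were higher and 5 lower, against 23.2% and 49.9% of all genes compared. Tcp1, a CCT subunit, stood at 162, 382, 1140 and 1190 FPKM, and Cct7 at 52.2, 83.1, 235 and 220. Cct6b, the testis form of one subunit, stood at 1.15, 19.3, 152 and 192 FPKM. Cct2 and the cofactor Tbca stayed under 2-fold, at 313 and 274 FPKM in the adult against 180 and 140 at d12.

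**Figure D4:**
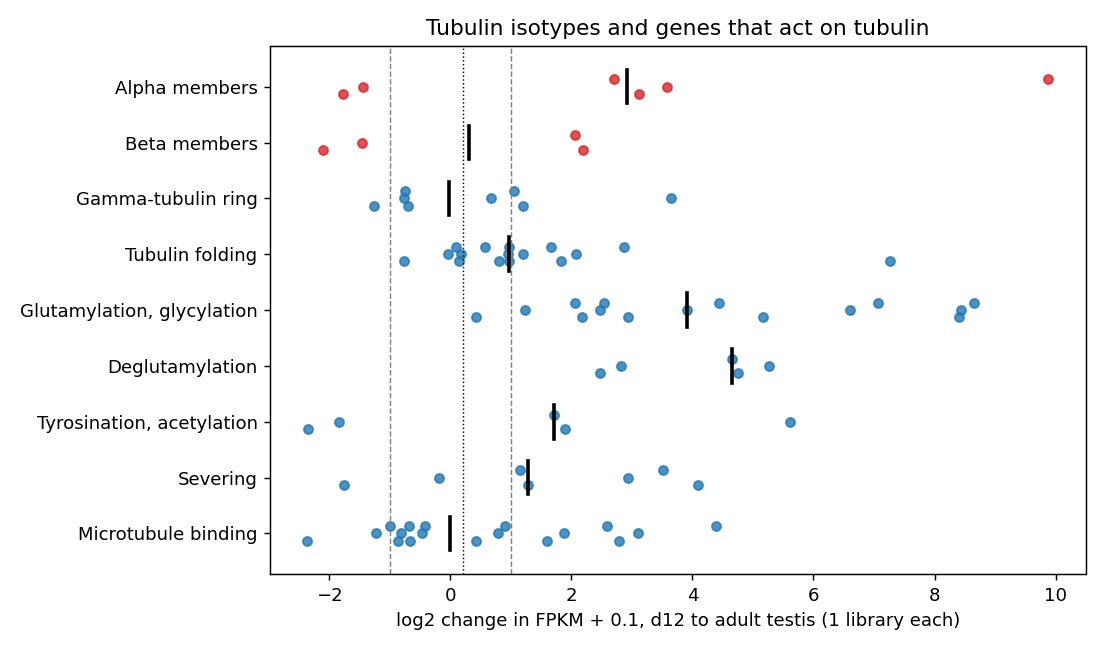
Log2 change of FPKM + 0.1 from d12 to adult for each gene with a mean of at least 1 FPKM, with 1 point per gene, tubulin members in red, other lists in blue and the black bar at the list's median. Dashed lines mark 2-fold and the dotted line the median of all genes compared at 0.20; the glutamylation and glycylation list has its median at 3.91 and the beta members at 0.30, which turns to -0.91 under one FPKM sum. Points are set at 3 heights in a row only to separate them.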

How the data were processed

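Strand-specific RNA-seq libraries of total testis RNA at d12, d16, d24 and adult, 1 per stage, were sequenced as pairs of 50 bp. Per the methods, the authors used TopHat2 2.1.0 over Bowtie 1.1.2 on GRCm38/mm10, 1 alignment per pair. They deposited FPKM values of RefSeq genes, computed by Cuffdiff (Cufflinks 2.2.1). Its options were set to correct for sequence bias and for reads matching several places, but not for effective length. The mapping and these settings decide where the fragments of near copies count, and how far the options changed the values was not tested. The scaling between libraries is not given in the sources used here, and the value of 1 fragment did not follow the fragments on genes.

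From the deposited FPKM values, log2(FPKM + 0.1), ratios and shares were computed in scipy 1.17.1, pandas 2.3.3 and numpy 2.4.6 under python 3.11.15. Counts of calls cover genes averaging 1 FPKM or more. Calls are changes of at least 2-fold. Fragments were recovered from transcript lengths. Where a gene's transcripts differ in length by a factor over 1.1, no interval is given. Intervals are exact 95% Poisson or Clopper-Pearson intervals, and the floor is 3 fragments. For a transcript of 1 kb this floor is 0.240 FPKM at d12 and d16, 0.137 at d24 and 0.336 in the adult. Sequences came from RefSeq on GRCm38.p6, with protein identities computed from translated coding sequence. The recovery and the calls were tested on simulated data.

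The members, the gene lists and the markers were chosen with earlier results of these data known. Named are the members, the other tubulins, in each list the 3 genes highest in the adult and up to 3 each way past 4-fold, and the 5 genes with profiles nearest to the members with the greatest rise and fall. Of these, 1 gene is not reported here. Vash1, the gamma-tubulin ring genes that declined and the single cell type markers were named after their values were seen. Alternatives were other scalings, pseudocounts of 0.01 and 1 FPKM, folds of 1.5 and 4, all genes of the table, and other bases for the pools. Those applied to steps between neighbouring stages for single members, and the scalings of the lists, were added after the values were seen.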

Additional observations from a re-analysis of the deposited data

How the results depend on the processing

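With 1 library per stage, no replicate could be left out, and differences between animals are not covered. No paired analysis was possible because each stage has 1 library. Of 200 recomputed log2 changes of members, 1 changed sign, that of Tubb4b from d24 to adult under one FPKM sum. Members called lower from d12 to d16 numbered 6 at 1.5-fold, 0 at 4-fold, 2 with a pseudocount of 0.01 FPKM, 0 with 1 FPKM, and 3 with each of the 3 scalings (one FPKM sum, the upper quartile and the median gene), and 0 were called higher at 4-fold. From d16 to d24, 1 was higher at 4-fold, 2 under one FPKM sum and 3 under scaling by the median gene, and 2 were lower at 1.5-fold, 3 under one FPKM sum and 2 by the median gene. From d24 to adult, 2 were lower at 1.5-fold and 2 under one FPKM sum. From d12 to adult, 1 was lower at 4-fold. Of all genes, under one FPKM sum 5.78% were lower from d12 to d16, 30.2% lower from d16 to d24, 6.63% higher and 10% lower from d24 to adult, and 23.2% higher and 49.9% lower from d12 to adult; without the minimum level 5.88% were lower from d12 to d16 and 3.86% from d24 to adult. Tuba3a alone held 26.3%, 39.8%, 46.4% and 42% of the alpha pool at d12, d16, d24 and adult, and Tuba3b alone 19.1%, 41.5%, 45.9% and 40.3%. Counted as fragments, which gives longer transcripts more weight, Tubb4b held 46.9%, 65.9%, 86.4% and 92% of the beta pool. Beyond what these thresholds, scalings and units set by construction, the cause was not tested.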

Other observations

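Of the other tubulin classes, delta tubulin was the one called higher in the adult than at d12. Tubg1, the gamma tubulin that nucleates microtubules, stood at 24.5, 22.1, 19 and 27.7 FPKM at d12, d16, d24 and adult, a ratio of 1.13 from d12 to adult (0.992 to 1.30). Tubd1, the delta tubulin known from centrioles, stood at 2.91, 5.88, 20.5 and 18 FPKM, and Tube1, the epsilon tubulin, at 3.33, 3.52, 4.06 and 3.25. Of the 8 gamma-tubulin ring genes, 3 were at least 2-fold higher in the adult than at d12 and 1 was lower. Of all genes compared, 35.7% were higher and 23.1% lower. Under each other scaling 1 ring gene was higher and 4 lower. The shares of all genes were 23.2% and 49.9% under one FPKM sum, and were not computed for the other scalings. Mzt2 stood at 2.06, 3.88, 23.8 and 27 FPKM, Tubgcp2 at 12.3, 15.2, 25.1 and 28.3, and Nedd1 at 8.41, 8.81, 12.5 and 13.5. Tubgcp3, the gene called lower, stood at 11.6, 9.08, 6.6 and 4.79 FPKM, and the adult over d12 ratios of Tubgcp5, Tubgcp6 and Mzt1 were 0.61, 0.581 and 0.593. Tubulins of low level were Tubb2a, at 4.13, 1.5, 2.58 and 3.28 FPKM, and Tubb2b, at 2.04, 0.541, 0.663 and 0.875, while Tubal3 stayed at or below 0.833 FPKM, Tubb4a at or below 0.323, Tubb1 at or below 0.0454 and the second gamma tubulin Tubg2 at or below 1.01.

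Of 7 severing genes past 1 FPKM, 5 were at least 2-fold higher in the adult and 1 lower, against 35.7% and 23.1% of all genes compared. Under one FPKM sum 3 were higher and 2 lower, against 23.2% and 49.9%. Katnal2 stood at 4.01, 18.1, 70.7 and 69.8 FPKM and Katnal1 at 4.28, 9.56, 35.4 and 33.5. Fignl1 stood at 23.2 FPKM at d12 and 56.5 in the adult. Of 18 genes that bind microtubules or tubulin, 6 were higher and 3 lower, near the shares of all genes. Under one FPKM sum 4 were higher and 9 lower, also near the shares of 23.2% and 49.9%. Mapre3, which tracks growing ends, stood at 2.85, 5.92, 20.7 and 61.8 FPKM. Map10 stood at 3.76 FPKM at d12 and 26.6 in the adult, Mapt at 0.421 and 4.35, and Map7d2 fell from 23.4 to 4.45. Map4, Map7 and Stmn1 stood at 97.1, 63.5 and 330 FPKM in the adult, against 52, 17.1 and 191 at d12.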
